A study of Mus musculus with 40 samples.

Results

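Axon guidance genes were followed in mouse dorsal root ganglia, the clusters of sensory neuron cell bodies beside the spinal cord, from 8 hours to 10 days after a nerve injury. The genes are the semaphorins, ephrins, Slits and netrins and their plexin, neuropilin, Eph, Robo and Unc5 receptors, chosen by gene symbol in the array's probe annotation. They numbered 61 of the 16593 genes named on the array, 31 of them ligand genes and 30 receptor genes, and were read by 92 probes. For 43 of the 61, a probe's signal passed the detection level on 3 or more arrays, and these 43 were tested among 10519 genes. The other 18 lay below that level on every array: the ligand genes Sema3a, Sema3c, Sema3d, Sema3e, Sema3g, Efna2, Efna3, Efna4, Ntn1 and Slit3, and the receptor genes Plxna1, Plxna3, Plxna4, Epha1, Epha2, Epha10, Ephb3 and Unc5d. A reading below the level gives only a bound, so nothing is said of changes in these 18. Dcc, Ephb2, Plxnb2, Robo3, Sema4c and Sema5b were not analysed here.

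The ganglia came from adult male C57BL/6J mice, 9 to 10 weeks old. The 7 naive arrays are from untreated mice, and the 33 injured arrays are from mice with spared nerve injury, in which 2 of the sciatic nerve's branches, tibial and common peroneal, are ligated and severed and the sural nerve is spared. Injured ganglia were taken at 12 times: 8 and 16 hours and 1 to 10 days, with 3 arrays at each time except 4, 9 and 10 days, which have 2. The series set gene expression over these days beside pain behaviour, which was not analysed here. No sham-operated group was analysed here, so a difference from naive includes anaesthesia and surgery. Whether 1 mouse or several stand behind an array, and which ganglia were taken, is not in the labels, and p-values measure the spread between these arrays, which may be partly technical. The times were joined as an early phase (8 hours to 1 day, 9 arrays), a middle phase (2 to 5 days, 11 arrays) and a late phase (6 to 10 days, 13 arrays), each averaged over its times with equal weight.

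Guidance cues steer growing axons by attraction or repulsion. Secreted class 3 semaphorins act through neuropilins paired with plexin A receptors, membrane-bound semaphorins act mostly on plexins directly, ephrins signal to Eph receptor kinases across cell contacts, Slits act on Robo receptors, and netrins act on Dcc and Unc5 receptors. Many of these genes stay expressed in the adult nervous system, where they are studied in synapses, vessels, immune cells and regrowing axons.

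The promoter windows of Sema7a and Sema4f are shown, which had the largest middle-phase fall and rise of the guidance genes called and read above the detection level on all arrays, from RefSeq on build GRCm38.p6. Sema7a lies on the plus strand with its window at chr9:57939862-57940161, and Sema4f on the minus strand with its window at chr6:82939720-82940019. Each window runs 5′ to 3′ from 250 bases before the gene's start to 50 bases after it, and the capitals mark the bases from the start on.
Sema7a: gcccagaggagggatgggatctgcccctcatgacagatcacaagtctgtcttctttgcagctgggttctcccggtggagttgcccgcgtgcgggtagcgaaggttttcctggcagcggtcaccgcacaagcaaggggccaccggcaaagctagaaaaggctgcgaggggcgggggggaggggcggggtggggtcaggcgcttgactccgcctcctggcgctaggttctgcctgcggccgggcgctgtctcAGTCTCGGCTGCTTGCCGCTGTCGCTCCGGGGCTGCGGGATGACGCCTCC
Sema4f: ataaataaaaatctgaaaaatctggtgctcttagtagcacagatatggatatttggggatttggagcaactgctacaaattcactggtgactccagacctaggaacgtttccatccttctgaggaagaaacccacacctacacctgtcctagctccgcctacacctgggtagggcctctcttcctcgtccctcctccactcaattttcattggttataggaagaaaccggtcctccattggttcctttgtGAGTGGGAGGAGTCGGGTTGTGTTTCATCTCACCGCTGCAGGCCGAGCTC
The Sema7a window holds 23 CG dinucleotides and is 67.3% G and C, while the Sema4f window holds 7 and is 48.7%, against medians of 7 and 52.7% over 32851 mouse promoter windows. The binding motif letters of AP-1 (TGANTCA, where N is any base), the factor family of Jun and Atf3, were searched on both strands and are in 7.81% of all windows. The cAMP response element TGACGTCA, searched on both strands and not overlapping in letters with the first, is in 1.79%. Windows were in the table for 4 of the 6 genes past the threshold in a phase (Sema7a, Sema4f, Plxna2 and Sema4a, 7 windows in all), and none of the 7 holds either motif.

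Values are log2 normalized probe signals. The median raw signal of an array lay between 130.2 and 244.5 intensity units, the detection level was 6.85 on the log2 scale, and the median standard deviation between arrays of a group was 0.19. Defining sensory neuron markers were present, with 9 of 11 tested above the detection level on all 40 arrays. Muscle transcripts varied between arrays: the mean of 10 skeletal muscle markers ranged from 6.56 to 9.41 over naive arrays and reached 10.26 on 8-hour replicate 2 and 12.04 on 8-day replicate 1. The array of 16-hour replicate 3 lay 2.27 standard deviations out on the first axis of variation within groups, which holds 38.1% of that variation. Values in bulk tissue cannot tell fewer cells of a type from less RNA per cell.

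In the middle or late phase 6 guidance genes differed from naive ganglia, and 5 of them are semaphorins. Transcripts of Sema7a and Sema3f fell and those of Sema4f and Sema6a rose from days 2 to 5 on, and in the late phase Sema4a was also higher and the receptor gene Plxna2 lower. Over the early phase as a whole no guidance gene passed the threshold, and at its single times Plxnb3 passed at 1 day. The call is an adjusted p under 0.05 from limma with Benjamini-Hochberg adjustment over all 10519 genes. In the early phase 0 of 43 passed, where 1.12% of all tested genes did, and 7 of the 43 were at an unadjusted p under 0.05 against 11.3% of all genes. In the middle phase 2 rose and 2 fell, which is 9.3% of the 43 against 10.9% of all genes (5.72% higher and 5.21% lower). In the late phase 3 rose and 3 fell, 14% against 10.9% (5.76% higher and 5.11% lower). As a whole the guidance genes were therefore called about as often as any gene, and their median log2 difference was -0.04, -0.00 and -0.02 in the 3 phases, against -0.01, -0.01 and -0.02 over all genes. Within them, 4 of 13 semaphorins (30.8%) were called in the middle phase and 5 of 13 (38.5%) in the late phase, against 0 and 1 of 22 receptor genes. These counts include Sema6a, which came into the test through injured arrays only, with every naive reading below the detection level.

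**Figure D1:**
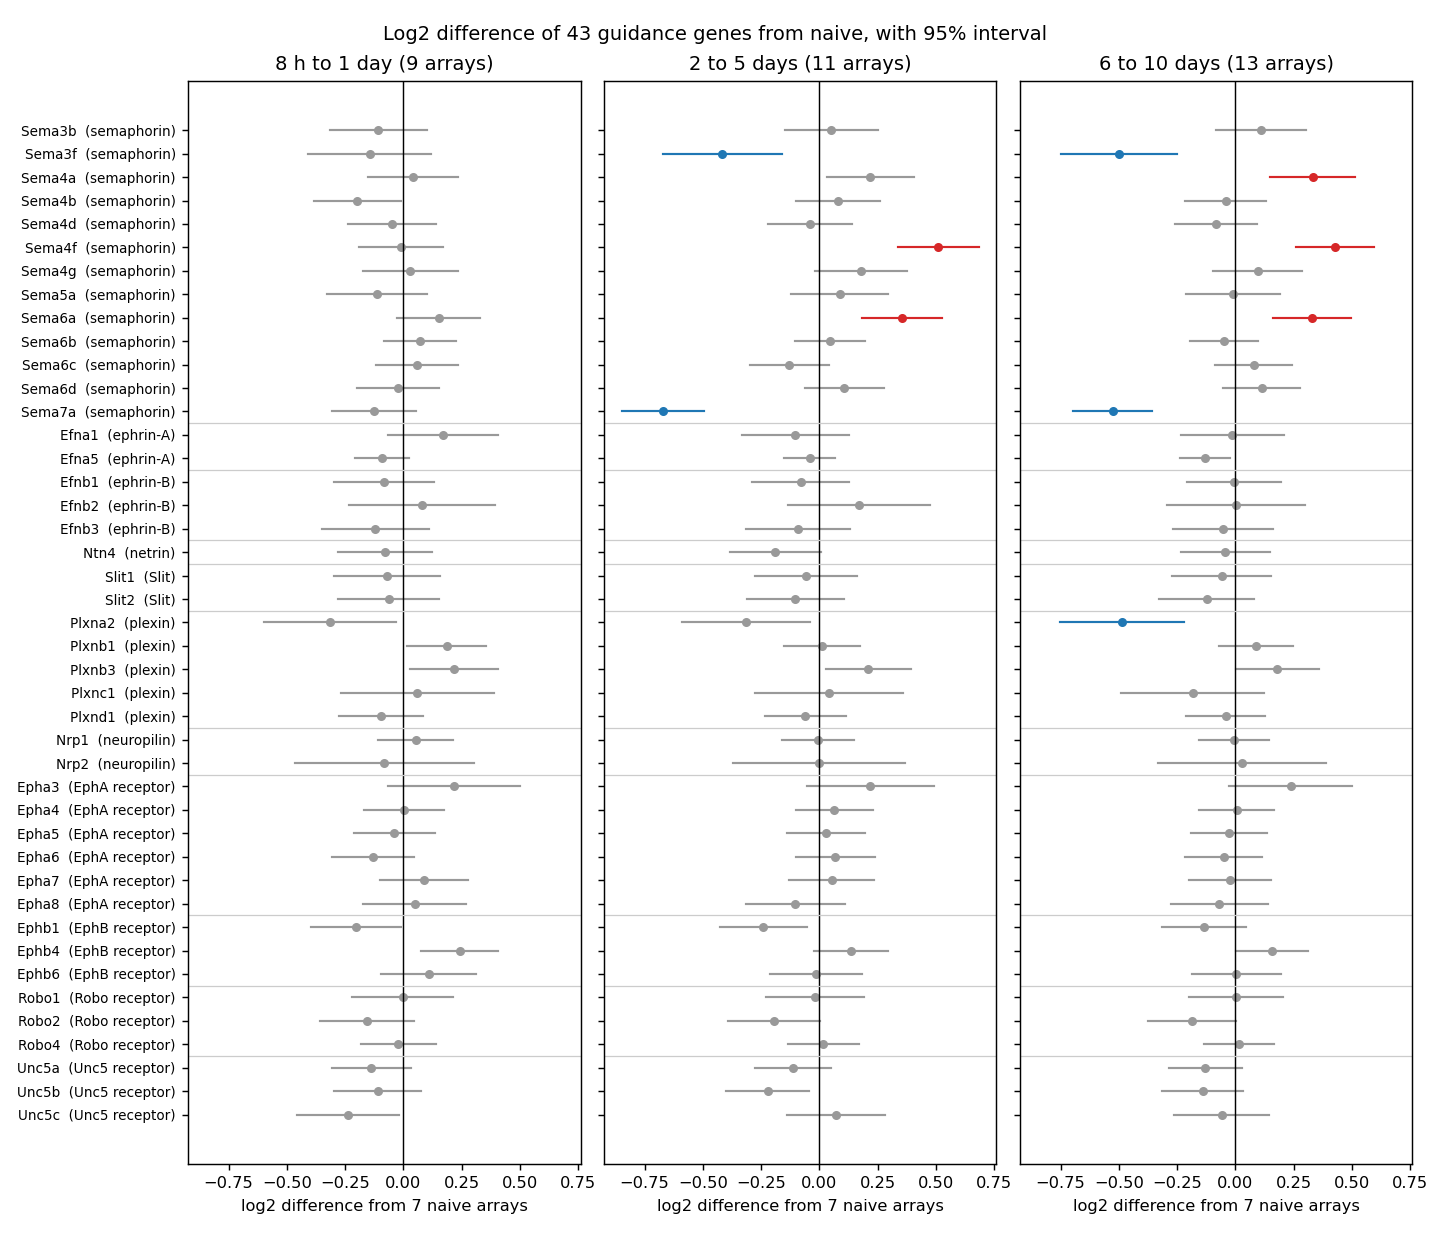
Log2 difference from the 7 naive arrays (x axis) for the 43 tested guidance genes (y axis, with family) in the early, middle and late phase, as points with 95% intervals from limma. Red and blue points passed the adjusted threshold as higher and lower, grey points did not. Points of Efnb2, Epha5, Epha7, Sema6a and Unc5a rest partly on groups with no reading above the detection level and are not exact. The same holds for other genes near that level, such as Slit1, Epha6, Robo2, Sema6c and Ntn4. Coloured points lie among the semaphorins, except for Plxna2 in the late phase.

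Sema7a encodes a membrane-anchored semaphorin that signals through integrin beta-1 and plexin C1 and is known to promote axon growth and to act in inflammation. Over the 7 naive arrays its log2 signal had a lowest value of 10.11, a median of 10.31 and a highest of 10.72, and in the early phase these were 9.94, 10.19 and 10.49. They were 9.32, 9.64 and 9.92 in the middle phase and 9.69, 9.81 and 9.95 in the late phase. All 11 middle and all 13 late arrays were below every naive array, while 3 of 9 early arrays were. The log2 difference from naive was -0.12 ± 0.09 (SE) in the early phase, which did not pass the threshold. It was -0.67 ± 0.09 in the middle phase (adjusted p = 5.35e-07), or 0.628 of the naive signal, and -0.53 ± 0.08 in the late phase (adjusted p = 1.97e-05).

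The low point was day 3, where the 3 Sema7a readings were 9.41, 9.57 and 9.32. There the difference was -0.91 ± 0.12 (limma adjusted p = 2.27e-06), or 0.532 of the naive signal. The differences at 8 hours, 16 hours and 1 day were 0.05, -0.14 and -0.29, none past the threshold, and every time from day 2 passed it, with differences between -0.60 and -0.49 on the days other than day 3. Of its receptor genes, Plxnc1 was at 0.04 ± 0.16 in the middle phase and -0.18 ± 0.15 in the late phase, neither past the threshold. Itgb1, the integrin beta-1 gene, rose by 0.33 ± 0.09 in the middle phase (limma adjusted p = 0.0126), a call that ended without 4-day replicate 2 (adjusted p = 0.0546) and with replicate number as a block (0.258). Its late value of 0.23 ± 0.09 did not pass (adjusted p = 0.0862). One probe measured Sema7a, and its other 2 probes never rose above the detection level.

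Sema3f encodes a secreted repellent semaphorin that binds neuropilin-2. Its lowest, median and highest log2 signals were 9.73, 9.91 and 10.06 on naive arrays, 9.24, 9.80 and 10.25 early, 8.88, 9.57 and 9.82 in the middle phase, and 8.97, 9.40 and 9.67 late. All 13 late arrays and 10 of 11 middle arrays were below every naive array, as were 4 of 9 early arrays. The differences were -0.14 ± 0.13 early, -0.42 ± 0.13 in the middle phase (limma adjusted p = 0.026) and -0.50 ± 0.12 in the late phase (adjusted p = 0.00473). A second Sema3f probe above the level on all arrays gave -0.44 ± 0.11 and -0.45 ± 0.11 in the middle and late phase. The middle call ended without naive replicate 6 (adjusted p = 0.0568), naive replicate 7 (0.0534) or 4-day replicate 1 (0.0506). Nrp2, the gene of its binding receptor, was at -0.00 ± 0.18 and 0.03 ± 0.18 in these phases.

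Plxna2 encodes a plexin that transmits class 3 semaphorin signals with neuropilins and also binds Sema6a. Its log2 signal was 10.53, 10.77 and 10.93 (lowest, median and highest) on naive arrays and 9.93, 10.44 and 10.83 early. It was 9.75, 10.45 and 11.03 in the middle phase and 9.68, 10.32 and 10.66 late. The groups overlapped in every phase, with 5 of 9, 6 of 11 and 11 of 13 arrays below every naive array. The late difference was -0.49 ± 0.13 (limma adjusted p = 0.011). The early and middle values, -0.31 ± 0.14 and -0.31 ± 0.13, did not pass the threshold, and the late value did not differ from the early one past it (-0.17 ± 0.12, adjusted p = 0.552).

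Sema4f, a class 4 transmembrane semaphorin gene, had the largest rise among the called guidance genes read above the detection level on all arrays. Its lowest, median and highest log2 signals were 10.42, 10.56 and 10.72 on naive arrays and 10.20, 10.52 and 10.86 early, then 10.57, 11.04 and 11.48 in the middle phase and 10.78, 10.97 and 11.27 late. All 13 late arrays and 10 of 11 middle arrays were above every naive array, and 2 of 9 early arrays were. The differences were -0.01 ± 0.09 early, 0.51 ± 0.09 in the middle phase (limma adjusted p = 5.19e-05), or 1.42-fold, and 0.43 ± 0.08 in the late phase (adjusted p = 0.000358). The readings at day 3 were 10.96, 11.06 and 11.48, with a difference of 0.62 ± 0.12.

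Sema4a encodes another class 4 semaphorin, best known from immune cells and the retina. It read 8.96, 9.16 and 9.23 (lowest, median and highest log2 signal) on naive arrays, 8.97, 9.13 and 9.57 early, 8.89, 9.34 and 9.64 in the middle phase and 9.01, 9.49 and 9.71 late. Above every naive array were 12 of 13 late, 9 of 11 middle and 2 of 9 early arrays. The late difference was 0.33 ± 0.09 (limma adjusted p = 0.0117), while 0.04 ± 0.10 early and 0.22 ± 0.09 in the middle phase did not pass the threshold. The late array outside this pattern was 8-day replicate 2, at 9.01.

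Sema6a encodes a transmembrane semaphorin that binds plexin A2 and plexin A4. Its readings lie at the detection level of 6.85. On naive arrays they ran from 6.40 to 6.78 with a median of 6.53, all below the level. They were 6.43, 6.73 and 6.99 early, 6.40, 6.99 and 7.23 in the middle phase and 6.60, 6.88 and 7.22 late. The level was passed on 2 of 9 early, 8 of 11 middle and 8 of 13 late arrays. Computed against the level, with a reading below it set to it, Sema6a was at least 1.09-fold higher in the middle phase and at least 1.07-fold higher in the late phase. The limma fit on the readings themselves passed the threshold in both, at 0.35 ± 0.08 (adjusted p = 0.00394) and 0.33 ± 0.08 (adjusted p = 0.00573). Sema6a entered this fit through injured arrays only, and its naive side rests on readings below the level, so these values are not exact. With the neqc background correction these values shrank to 0.08 and 0.07 and kept the call (adjusted p = 0.00591 and 0.0119), and with the authors' deposited log2 values they were 0.22 and 0.20. A second Sema6a probe, above the level on 6 arrays, gave 0.44 ± 0.09, 0.56 ± 0.09 and 0.59 ± 0.09 in the 3 phases.

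**Figure D2:**
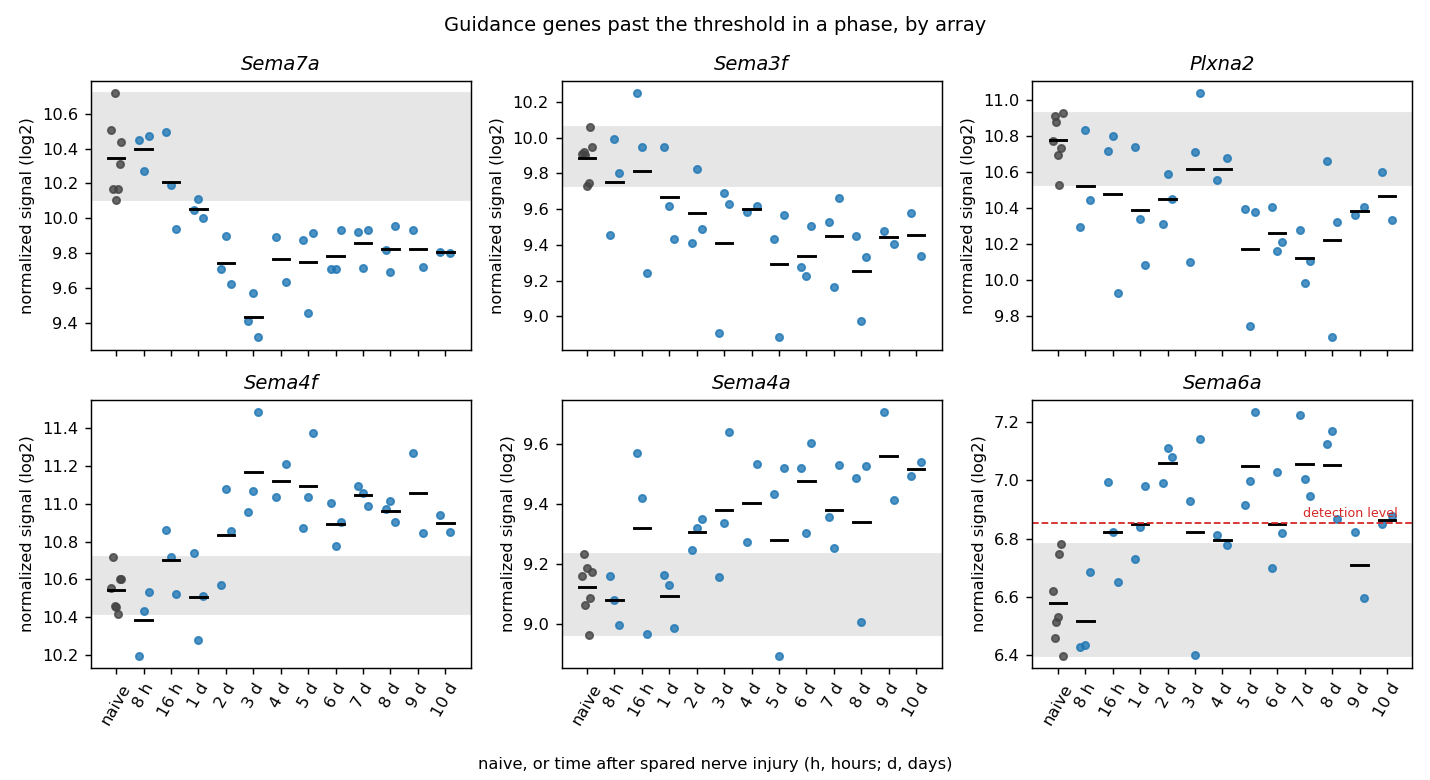
Normalized log2 signal (y axis, a scale of its own for each gene) of the 6 called guidance genes on each of the 40 arrays, by time after injury (x axis). Each point is an array, bars are group means, the grey band is the range of the naive arrays, and the dashed line in the Sema6a panel is the detection level of 6.85. Sema7a is below the band on all arrays from day 2 with its lowest mean at day 3, and Sema4f is above the band on all arrays from day 3.

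The remaining 8 tested semaphorins did not pass the threshold in any phase. Sema4b, Sema4d and Sema5a were at -0.20 ± 0.09, -0.05 ± 0.09 and -0.11 ± 0.11 early and at -0.04 ± 0.09, -0.08 ± 0.09 and -0.01 ± 0.10 late, as log2 differences from naive. Sema4b was the semaphorin with the lowest unadjusted p early among these (0.0372, adjusted p = 0.394). Sema3b, a secreted class 3 semaphorin gene, was at 0.05 ± 0.10 in the middle and 0.11 ± 0.10 in the late phase, and Sema6d, a transmembrane one, was at 0.11 ± 0.08 in both. Further probes of these genes differed in sign. For Sema3b, those above the level on 33 and 35 arrays gave -0.08 and -0.07 in the middle and 0.10 and -0.06 in the late phase. For Sema6d, those above it on 36 and 31 arrays gave -0.02 and -0.10, then -0.006 and -0.045. Sema4g, Sema6b and Sema6c, measured near the detection level, stood at 0.18 ± 0.10, 0.05 ± 0.07 and -0.13 ± 0.08 in the middle phase.

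Ephrin, netrin and Slit ligands gave no call in any phase. Efna5, an A-type ephrin, read 11.05 to 11.30 on naive arrays and 10.81 to 11.16 on late arrays, and 10 of 13 late arrays were below every naive array. Its late log2 difference of -0.13 ± 0.05 did not pass (limma adjusted p = 0.119), and its 95% interval reaches 0.11 to each side. Efna1 was at 0.17 ± 0.12, -0.10 ± 0.11 and -0.01 ± 0.11 in the 3 phases. Late values of the B-type ephrin genes Efnb1 and Efnb3 were -0.01 ± 0.10 and -0.05 ± 0.11, and Efnb2 was above the detection level on 6 arrays, none of them naive. Ntn4, a netrin of basement membranes, was at -0.19 ± 0.10 in the middle and -0.04 ± 0.09 in the late phase. Slit2, a repellent ligand of Robo receptors, was at -0.10 ± 0.10 and -0.12 ± 0.10, and Slit1, above the level on 5 arrays, at -0.06 ± 0.11 and -0.06 ± 0.10.

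With 1 probe for each gene, no receptor gene other than Plxna2 passed the threshold in a phase. Nrp1, which encodes the binding receptor of Sema3a, read 10.67 to 10.91 on naive arrays and 10.60 to 11.04 late, and its log2 differences were 0.05 ± 0.08, -0.00 ± 0.08 and -0.01 ± 0.07. The late 95% interval of Nrp1 reaches 0.15 to each side of its value. Among plexins, Plxnb3 was at 0.22 ± 0.09, 0.21 ± 0.09 and 0.18 ± 0.09 in the 3 phases, and 5 of 9, 9 of 11 and 8 of 13 of its arrays were above every naive array, with limma adjusted p of 0.346, 0.137 and 0.218. Plxnb1, a receptor of class 4 semaphorins, was at 0.19 ± 0.08 early and 0.09 ± 0.08 late. Plxnd1, a plexin of vessels and neurons, was at -0.06 ± 0.09 in the middle and -0.04 ± 0.08 in the late phase.

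Of the EphB receptor kinases, Ephb4, known from veins, had the smallest unadjusted p of all guidance genes in the early phase (0.00535), with a log2 difference of 0.24 ± 0.08 and a limma adjusted p of 0.182. Ephb1 was at -0.24 ± 0.09 in the middle phase (adjusted p = 0.0871) and -0.13 ± 0.09 late, and Ephb6, a kinase-dead member, was at 0.11 ± 0.10 early and 0.00 ± 0.09 late. Epha4, a receptor for both ephrin classes, was at 0.06 ± 0.08 in the middle and 0.01 ± 0.08 in the late phase. Epha6 and Epha8 had late values of -0.05 ± 0.08 and -0.07 ± 0.10. Epha5 and Epha7 were above the detection level on 3 arrays each and on no naive array, so no difference is given for them. The probes of Epha3 disagreed: the one used gave 0.22 ± 0.13 in the middle and 0.24 ± 0.13 in the late phase, a second 0.35 ± 0.08 and 0.31 ± 0.07, and the last 0.01 ± 0.10 and 0.08 ± 0.10. These probes were above the detection level on 19, 20 and 9 arrays, in the order given. With the mean of its probes Epha3 passed the threshold in the late phase.

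The Slit receptor genes Robo1, Robo2 and Robo4 had late log2 differences of 0.00 ± 0.10, -0.19 ± 0.09 and 0.02 ± 0.07, where Robo4 is the Robo receptor of endothelial cells. Robo2 was above the detection level on 13 arrays. The netrin receptor gene Unc5b was below 0 in every phase without passing the threshold, lowest in the middle phase at -0.22 ± 0.09 (limma adjusted p = 0.105). Unc5a was above the detection level on 2 naive arrays, 1 late array and no early or middle array. Unc5c was at -0.24 ± 0.11 early (adjusted p = 0.388) and 0.07 ± 0.10 in the middle phase.

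At single times, 24 differences of a guidance gene from naive passed the threshold, 11 higher and 13 lower, and all 12 times share the same naive arrays. They fall on 6 genes: Sema7a at 9 times, Sema4f at 6, Sema6a at 4, Sema3f and Plxna2 at 2 each, and Plxnb3 at 1. At 8 and 16 hours none passed, against 0.105% and 0.713% of all tested genes. At 1 day Plxnb3 passed (1.65% of all genes), and at days 2, 3 and 4 there were 2 calls each (3.86%, 5.82% and 2.45%). Day 5 had the most, 5 of 43, against 6.93% of all genes. On days 6 to 10 there were 1, 4, 4, 2 and 1 calls, against 5.2%, 6.05%, 4.18%, 2.02% and 2.8%.

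The 1-day Plxnb3 readings were 7.95, 8.54 and 8.38, all above the naive range of 7.57 to 7.94, and the difference was 0.47 ± 0.13 (limma adjusted p = 0.0461), or 0.26 under neqc. That call ended in 25 of 40 fits that each left out 1 array. Sema4f passed on days 3, 4, 5, 7, 8 and 9, Sema6a on days 2, 5, 7 and 8, Sema3f on days 5 and 8, and Plxna2 on days 5 and 7. Day 5 Plxna2 (-0.60 ± 0.19) lost its call in 28 of 40 such fits, day 9 Sema4f (0.51 ± 0.14) in 23 and day 9 Sema7a (-0.52 ± 0.14) in 20. Without 5-day replicate 2 the day 5 values of Plxna2 and Sema3f moved from -0.60 to -0.39 and from -0.59 to -0.39, and without 9-day replicate 1 the day 9 Sema4f value moved from 0.51 to 0.30. Calls that no left-out array ended were those of Sema7a on days 2, 3 and 6 and of Sema4f on day 3. By the moderated F-test over all 12 times, 3 guidance genes differed from naive, Sema7a (adjusted p = 2.61e-05), Sema4f (0.000254) and Sema6a (0.0196), against 7.52% of all genes. Sema6a counts here and among the calls at single times although every naive reading of it was below the detection level.

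**Figure D3:**
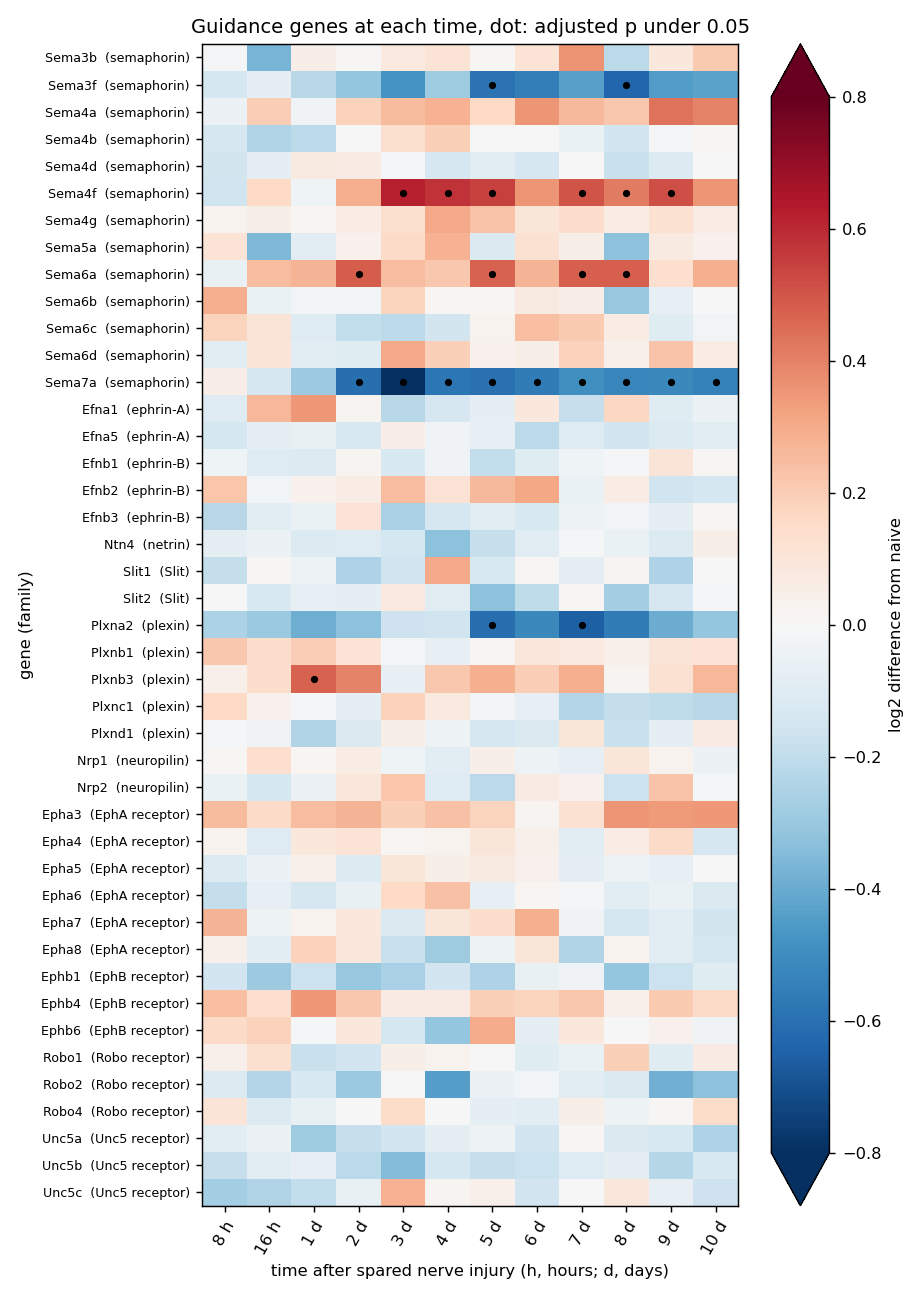
Log2 difference from naive (colour, red higher and blue lower, scale ending at 0.8 in each direction) of the 43 tested guidance genes (rows, by family) at each of the 12 times (columns). Dots mark an adjusted p under 0.05. Sema7a carries 9 dots, from day 2 to day 10, and passes the end of the scale on day 3.

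The late phase was also set against the early phase, a difference that holds no naive value, although the naive arrays enter the fit's variances. Here 2 guidance genes were higher and 2 lower, 9.3% of the 43 against 7.08% of all genes (4.4% higher and 2.68% lower). Sema4f was higher late by 0.44 ± 0.08 (limma adjusted p = 0.000121) and Sema4a by 0.29 ± 0.08 (adjusted p = 0.0239), while Sema7a fell by 0.40 ± 0.08 (adjusted p = 0.00044) and Sema3f by 0.36 ± 0.11 (adjusted p = 0.0488). Sema6a did not pass (0.18 ± 0.08, adjusted p = 0.197). The Sema3f call ended in 28 of 40 fits without 1 array, those without any 1 of the 7 naive arrays among them, with adjusted p up to 0.149. The Sema4a call ended without 8-hour replicate 3 (0.0569), 16-hour replicate 3 (0.0866), 1-day replicate 3 (0.0573) or 9-day replicate 1 (0.0748), and without the 2 arrays of highest muscle level (0.0656).

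Marker genes of other cells moved over the same days. Of 11 macrophage markers tested, 10 rose in the middle phase (Tyrobp did not pass) and 10 in the late phase (Cd163 did not pass), with median log2 differences of 0.57 and 0.91. Their mean level ran from 7.92 to 8.15 on naive arrays, from 8.47 to 9.04 in the middle phase and from 8.72 to 9.03 late. Of 8 fibroblast markers 1 rose in the middle phase and 2 late, and of 7 Schwann cell markers 2 rose late. Over all tested genes, 5.72% rose and 5.21% fell in the middle phase, and 5.76% rose and 5.11% fell late. The mean of the sensory neuron markers ran from 11.79 to 12.04 on naive, 11.60 to 11.92 on middle and 11.70 to 12.06 on late arrays, with 2 of 11 lower in each of these phases. No satellite glia, endothelial, skeletal muscle or lymphocyte marker passed the threshold. The part of these cells in the semaphorin and plexin values was not tested.

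A further list of 35 guidance cues and co-receptors, of which 26 were tested, held 4 that rose and 3 that fell in the middle phase, 26.9% against 10.9% of all genes, and 3 that rose and 2 that fell late (19.2%). The list was chosen with earlier results of these data known, so its share describes these genes and tests nothing. Flrt3, an adhesion protein that binds Unc5 and Robo receptors, rose by 1.42 ± 0.09 in the early, 2.13 ± 0.09 in the middle and 1.88 ± 0.08 in the late phase (limma adjusted p = 4.45e-13, 2.11e-19 and 2.38e-18), and it was the early call of this list. With neqc or with the mean of a gene's probes some values in this list were smaller and kept their call. Chl1, an L1-family adhesion molecule that can act as a semaphorin co-receptor, rose by 0.81 ± 0.11 and 0.96 ± 0.11 (adjusted p = 3.31e-06 and 6.9e-08), with 0.34 and 0.41 under neqc and 0.48 and 0.57 as the mean of its probes. Sdc1, a heparan sulfate proteoglycan of the syndecan family, rose by 0.64 ± 0.13 and 0.83 ± 0.12 (adjusted p = 0.000604 and 7.57e-06), with 0.26 and 0.36 under neqc. Ntng1, which encodes the membrane-anchored netrin-G1, fell by 0.43 ± 0.07 and 0.41 ± 0.07 (adjusted p = 2.44e-05 and 2.73e-05), with a late value of -0.27 as the mean of its probes. The contactin gene Cntn4 fell by 0.27 ± 0.09 and 0.35 ± 0.09, with -0.09 and -0.12 under neqc. The middle Cntn4 call ended in 11 of 40 fits without 1 array and in 3 of 12 other settings. Flrt1 fell by 0.41 ± 0.12 in the middle phase, with -0.10 under neqc, a call that ended without naive replicate 1, 3 or 7 (adjusted p up to 0.0654).

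Proteins that carry guidance signals inside the cell were a list of 50 genes, 31 of them tested. In the middle phase 4 rose and 0 fell, and in the late phase 3 rose and 1 fell, 12.9% in each against 10.9% of all genes. Cfl1, the actin-severing protein cofilin, rose by 0.54 ± 0.07 and 0.40 ± 0.07 (limma adjusted p = 1.39e-06 and 9.44e-05), with 0.28 and 0.20 under neqc. Crmp1, a collapsin response mediator that acts downstream of class 3 semaphorins, rose by 0.53 ± 0.10 and 0.57 ± 0.10 (adjusted p = 0.000322 and 6.55e-05). Its relative Dpysl5 rose by 0.30 ± 0.07 in the middle phase (adjusted p = 0.00296). Nck2, an adaptor of Eph and ephrin signalling, rose by 0.34 ± 0.08 in the late phase (adjusted p = 0.00248), and Limk1, a kinase that inactivates cofilin, fell by 0.30 ± 0.10 (adjusted p = 0.0431). The Limk1 call ended in 10 of 40 fits without 1 array and in 6 of 12 other settings, with -0.14 under the replicate block (adjusted p = 0.594). That block also ended the late Nck2 call (limma adjusted p = 0.0829) and the middle Crmp1 call (0.0614).

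**Figure D4:**
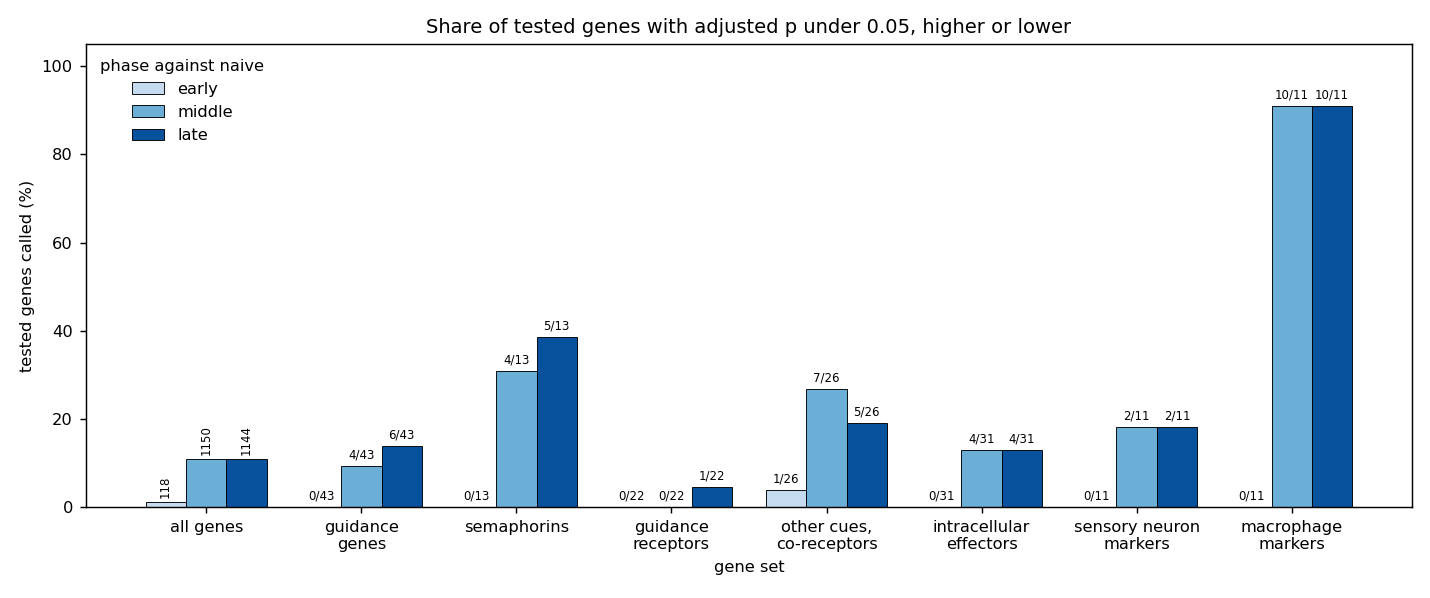
Share of tested genes past the threshold in either direction (y axis, percent) in the early, middle and late phase for all genes, the guidance genes, their semaphorins and receptors, the other lists, and sensory neuron and macrophage markers (x axis). Numbers over the bars are genes called of genes tested, or genes called for all genes. Guidance genes stand at 9.3% and 14% in the middle and late phase against 10.9% for all genes, and macrophage markers at 10 of 11.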

How the data were processed

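RNA of 40 samples was hybridised to Illumina bead arrays. The deposited table gives, per the file headers, an intensity signal for every probe and array with its detection p-value. The authors' other deposited table gives log2 values, no more than 0.038 away from log2 of quantile-normalized signals. Software and background steps are not given in the sources used here. For 37 arrays the detection p-values deposited beside the signal do not fall as it rises. The detection column for 10-day replicate 2 bears the name of another time and was kept as labelled.

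Normexp (offset 50) was applied to the signals, then quantile normalization and log2. The size of differences of dim probes depends on this choice. For Sema6a in the middle phase it gave 0.35, against 0.22 with the deposited log2 values and 0.08 under neqc. The detection level, 6.85, is the mean over the 3 arrays where p follows signal of the lowest normalized value at a detection p under 0.05 (6.82 to 6.88). Of 25697 probes, 23978 had 1 gene symbol, and 15462 were above the level on at least 3 arrays. The kept probe with the highest mean stood for a gene.

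One limma fit (version 3.58.1, R 4.3.3, trended variances) held a mean per group for all 40 arrays, and Benjamini-Hochberg adjustment ran over 10519 genes. No 2 arrays held identical values. Of the guidance genes, all past the threshold in a phase are named with values and the others by family. Of the 2 further lists, the 3 largest calls per direction are named, with Itgb1, as a receptor of Sema7a, added after its value was seen. Members, lists and phases were chosen with earlier results of these data known. Alternatives were neqc, the deposited log2 values, other filters, the mean of a gene's probes, fits on the groups compared, blocks of replicate or sample number, robust variances with array weights, a muscle covariate and single arrays left out. Added after seeing the data were the first within-group axis as a covariate and a fit without arrays of a muscle mean over 10. The number of arrays limits the precision.

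Replicate numbers were checked for pairing: deviations of same-numbered arrays from their group means had a median correlation of -0.02 over 201 pairs, against 0.01 over 528 pairs of different number, so numbers were not treated as pairs.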

Additional observations from a re-analysis of the deposited data

Results flagged for a closer look

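Among the 43 tested guidance genes, 4 had 1 naive array standing far from the other 6, by a gap test for a lone value at the 95% level. Chance gives about 1 in 20 of the 43 groups checked. Naive replicate 6 was high in Efna5 (11.30, the next array at 11.13) and in Slit1 (7.33, the next at 6.64), and low in Epha5 (6.35, the next at 6.70). Naive replicate 4 was high in Efnb1 (9.82, the next at 9.47). Readings of Slit1 and Epha5 lie about the detection level. Naive replicate 6 also had the highest muscle marker mean of the naive arrays, 9.41.

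The difference from naive changed between the early and the late phase, by the limma test of late minus early, for 4 genes on the log2 scale: Sema7a (-0.40), Sema3f (-0.36), Sema4f (0.44) and Sema4a (0.29).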

How the results depend on the processing

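The numbers of guidance genes called are compared here. In the early phase, 0 in the report, there was 1 with the mean of a gene's kept probes (Sema6a) and 1 with the first within-group axis as a covariate (Plxna2). In the middle phase, 4 in the report, there were 8 with that covariate (Ephb1, Plxna2, Plxnb3 and Sema4a added), where all-gene calls rose to 2214. That axis was taken from the deviations of these same arrays from their group means. It leaves the differences unchanged and lowers the remaining spread, so the calls it adds are no independent support. In the late phase the same 6 genes were called in all fits without 1 array, and 7 with the mean of kept probes (Epha3 added). For late against early, 4 in the report, there were 2 without the arrays of high muscle level (Sema4f and Sema7a). Over any time, 3 in the report, there were 17 with robust variances and array weights, where 4553 of all genes were called, and 7 with the axis covariate. Over single times, 24 in the report, there were 42 with robust variances and 37 with the axis covariate. Without 1 array at a time the counts ran from 0 to 0 early, 3 to 5 in the middle phase, 6 to 6 late, 2 to 4 for late against early (2 without 8-hour replicate 3 or 9-day replicate 1), 3 to 4 over any time and 18 to 27 over single times.

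With replicate number as a block, 2 genes were called late (Sema6a and Sema7a, of 551 among all genes) and 14 differences over single times. Replicate numbers 4 to 7 occur only among naive arrays. In every fit with this block, naive replicates 1 to 3 alone therefore set the naive level. How far the lost calls come from this smaller naive group was not tested. Late adjusted p under the block was 0.0531 for Sema4f, 0.0881 for Plxna2, 0.0986 for Sema3f and 0.188 for Sema4a, and 0.169 for Sema3f in the middle phase. The replicate numbers gave no sign of pairs: 11 of 36 arrays had their highest mean correlation with arrays of their own number. Replicate numbers do not follow the sample numbers in every group, and pairing by sample number was not checked in this way. Of the intracellular effectors, 4 in the middle and 4 in the late phase in the report, 2 were called in the middle and 2 in the late phase under the block, and 8 late with the axis covariate, as were 8 of the other cues and co-receptors, 5 in the report.

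Of 14 called phase values of guidance genes, none reversed. They lost the call in 11 of 168 fits under other settings and in 35 of 560 fits without 1 array. The 168 include fits with the axis covariate, which leaves the differences unchanged. The 560 include fits without an array outside the groups compared, which hardly moves the difference. Neither share is therefore a rate of robustness. The Sema3f call late against early also ended without a filter (0.0668), on the arrays compared alone (0.0816), under the replicate block (0.0938), with a block of sample numbers (0.0572) and without the arrays of high muscle level (0.105). Sema6a kept its call at 0.08 and 0.07 in the middle and late phase with neqc. Signal near the detection level limits Sema6a, and 18 genes could not be read.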
